A study of Homo sapiens with 12 samples.

Results

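Histones H2A and H2B form the dimers that flank the H3-H4 tetramer in the nucleosome, and cells need large amounts of them when DNA is replicated. ChIP-Seq binding of 4 regulators was read in hTERT-RPE1 and U2OS cells at 10 of the replication-dependent genes that encode them, chosen from the 26 Mb part of the HIST1 cluster on the short arm of chromosome 6, which holds further H2B genes. The 10 genes are HIST1H2AB, HIST1H2BB, HIST1H2AC, HIST1H2BC, HIST1H2BD, HIST1H2BE, HIST1H2AD, HIST1H2BF, HIST1H2AE and HIST1H2BG. They were read at 7 sites. Of these genes, some form 3 divergent pairs, H2BC/H2AC, H2AD/H2BF and H2BG/H2AE, in which an H2A and an H2B gene are transcribed away from a shared stretch, and each pair was read at its midpoint. The other 4 genes, H2AB, H2BB, H2BD and H2BE, were read singly at their start sites. A region belonged to a site when its summit, the position with the most piled-up reads, lay within 1 kb. By this rule 54 of the 1636159 regions listed in all 8 libraries belonged to the 10 genes.

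The libraries were made with antibodies against NPAT, CASP8AP2, HINFP and E2F1, with 1 library per factor in each cell line. The hTERT-RPE1 line was derived from normal retinal pigment epithelium by immortalization with telomerase, and U2OS is an osteosarcoma line. No treatment was named for any library. Rabbit IgG was the control for NPAT, CASP8AP2 and E2F1, and goat IgG was the control for HINFP. NPAT is a substrate of cyclin E-CDK2 and a coactivator of histone genes. CASP8AP2, also known as FLASH, is found with NPAT in histone locus bodies and takes part in the 3′ processing of histone transcripts. HINFP is a zinc finger protein best known as an activator of H4 genes, and E2F1 activates genes of the G1/S transition. H2B promoters are known for an octamer element that is bound by POU domain proteins of the OCT1 type.

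The 8 lists held between 39603 and 478015 regions, and none had a height, the number of reads at the summit, under 8. A region was called a peak when the p-value given by the peak caller was below 0.00001 and its fold change was above 2. Between 184 and 1516 regions of a list passed. The raw ratio is the count of ChIP sequences plus 1 over the count of IgG sequences plus 1. The intervals beside it are 95% Clopper-Pearson intervals of the ChIP share of both counts, written as a ratio. They cover counting error only, as do the p-values of the caller, and without replicates no difference between libraries or sites could be tested against the spread between replicates. Reads without molecular identifiers are not independent molecules. How many reads each library held in all is unknown, but the depth of a ChIP library was 0.858 to 1.23 times that of its IgG library.

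The sequence before the start sites is shown for 4 of the genes, because the results below turn on them. HIST1H2AC belongs to the pair with peaks of 3 factors, HIST1H2AE to a pair with few NPAT sequences in U2OS cells, HIST1H2BE had no peak, and HIST1H2BD is the gene without the octamer. Each run is the 250 bases before the start in RefSeq (GRCh38.p14, a later build than the ChIP lists), 5′ to 3′ along the gene. The capitals mark the letters of the TATA box, TATAAA, the CCAAT box, CCAAT, and the octamer, ATTTGCAT, on either strand and at any position.
HIST1H2AC (chr6:26123922-26124171, plus strand): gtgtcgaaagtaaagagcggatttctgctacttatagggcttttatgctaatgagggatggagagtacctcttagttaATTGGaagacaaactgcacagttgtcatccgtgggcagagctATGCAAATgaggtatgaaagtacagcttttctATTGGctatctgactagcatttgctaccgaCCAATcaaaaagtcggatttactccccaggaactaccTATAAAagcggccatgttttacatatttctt
HIST1H2AE (chr6:26216671-26216920, plus strand): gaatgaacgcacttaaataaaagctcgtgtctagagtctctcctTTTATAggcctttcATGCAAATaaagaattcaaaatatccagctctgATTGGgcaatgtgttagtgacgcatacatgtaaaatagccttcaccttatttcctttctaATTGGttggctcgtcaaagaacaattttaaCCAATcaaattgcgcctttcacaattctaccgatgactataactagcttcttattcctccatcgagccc
HIST1H2BE (chr6:26183511-26183760, plus strand): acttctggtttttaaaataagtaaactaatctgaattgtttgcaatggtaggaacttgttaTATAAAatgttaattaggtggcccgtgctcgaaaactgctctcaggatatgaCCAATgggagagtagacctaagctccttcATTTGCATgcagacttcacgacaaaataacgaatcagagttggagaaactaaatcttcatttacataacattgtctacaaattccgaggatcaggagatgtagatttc
HIST1H2BD (chr6:26157871-26158120, plus strand): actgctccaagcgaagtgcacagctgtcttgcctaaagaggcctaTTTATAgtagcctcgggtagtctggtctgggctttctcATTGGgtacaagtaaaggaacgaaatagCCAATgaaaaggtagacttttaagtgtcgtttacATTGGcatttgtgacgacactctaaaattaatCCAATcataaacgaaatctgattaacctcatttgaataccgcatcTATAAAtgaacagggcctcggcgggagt

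RefSeq held a promoter for 10 of the 10 genes. The octamer was present before 9 of the 10 genes, all except HIST1H2BD, and before 1.66% of the 27305 promoters in the table. CCAAT was found before 10 of the 10 genes against 33% of all promoters. TATAAA was found before 8 of the 10 genes against 11.1% of all promoters, and the pair HIST1H2AD and HIST1H2BF were the genes without it. Matches were counted at any position in the window, for all promoters as well. The match before HIST1H2BE lay far from the start. Those before HIST1H2AE and HIST1H2BC were on the opposite strand and were the match of the partner gene. The 8 are therefore not a count of genes with TATAAA close to the start. An E2F core, TTTNNCGC, was found before 0 of the 10 genes against 5.93% of all promoters, and a HINFP core, ACGTCCGC, before 0 of the 10 against 0.388%. All motifs were searched on both strands, and none of the motifs contains another. In a divergent pair both windows hold nearly the same bases on opposite strands, so that a match there counts for both genes. A match is a description of the letters and not a site of binding.

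Listed regions were found for 37 of the 56 combinations of site and library, and 13 of the 56 had a peak. Of the 13 peaks, 11 were at the 3 divergent pairs, which make up 24 of the combinations. The 4 single genes had 2 peaks in 32 combinations, 1 of NPAT at H2BD and 1 of CASP8AP2 at H2AB, both in hTERT-RPE1 cells. In 7 further combinations a peak ran over a single gene's start site but had its summit beyond 1 kb. This was seen for 0 of the 24 pair combinations. No test was made of this split, since sites of 1 library are not replicates.

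**Figure D1:**
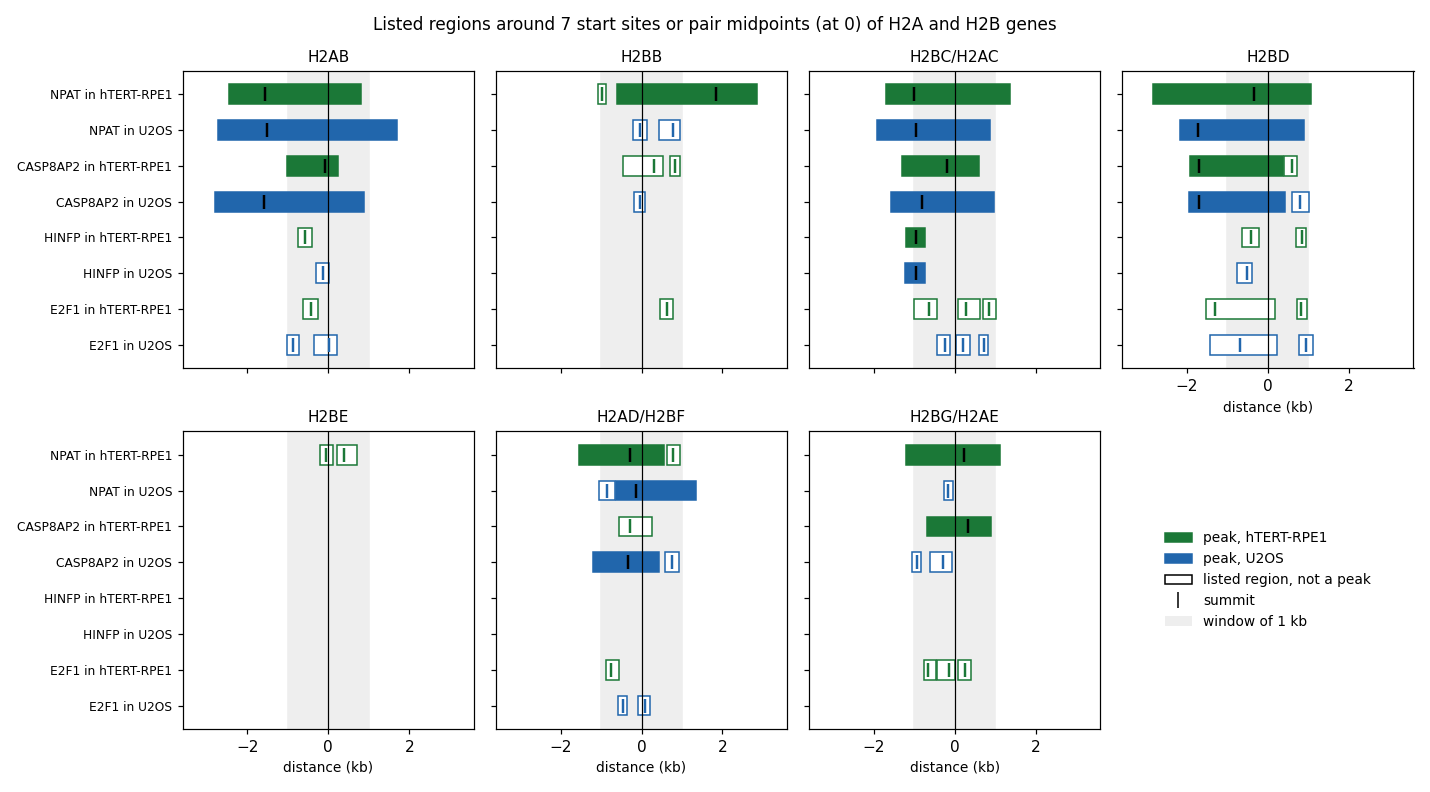
Listed regions around the 7 sites, with the distance from the start site or pair midpoint in kb on the x axis and the 8 libraries on the y axis. Regions with a summit within 1 kb or that run over the site are drawn. Bars run from region start to end, filled bars are peaks, open bars are regions that were not peaks, ticks are summits and the shaded band is the window of 1 kb; at the pairs the filled bars have their summits inside the band, while at H2AB and H2BD most filled bars have theirs to the left of it.

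Peaks of NPAT were found at 4 of the 7 sites in hTERT-RPE1 cells, where 0.259% of all listed regions were peaks, and at 2 of the 7 in U2OS cells, where 0.108% were. CASP8AP2 had a peak at 3 sites in hTERT-RPE1 cells (0.112% of all listed regions) and at 2 in U2OS cells (0.0927%). HINFP had a peak at 1 site in each line, against 0.393% of listed regions for hTERT-RPE1 and 0.5% for U2OS. E2F1 had a peak at 0 of the 7 sites in both lines, although it had the largest shares of peaks among listed regions, 0.707% for hTERT-RPE1 and 0.748% for U2OS. A raw ratio above 2 was common in every list and says less. It was reached by the main region of 6 sites for NPAT in hTERT-RPE1 cells (58.2% of all listed regions) and of 4 sites in U2OS cells (55.2%). For CASP8AP2 these were 5 sites (52.9%) and 4 sites (46.9%), for HINFP 2 sites (60.1%) and 1 site (46.7%), and for E2F1 1 site (53.8%) and 0 sites (40.4%), in hTERT-RPE1 and U2OS cells in that order.

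The divergent pair of HIST1H2BC and HIST1H2AC (NCBI36 window chr6:26231234-26233234) was the only one of the 7 sites with peaks of NPAT, CASP8AP2 and HINFP in both cell lines. NPAT had 526 ChIP and 62 IgG sequences there in hTERT-RPE1 cells, a raw ratio of 8.37 (6.51 to 11.2), over 3062 bp. In U2OS cells it had 520 ChIP and 60 IgG sequences, a raw ratio of 8.54 (6.63 to 11.5), over 2792 bp. The NPAT values of the 2 libraries were thus nearly equal, and the depth-corrected ratio of U2OS to hTERT-RPE1 was 0.897 (0.606 to 1.33).

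CASP8AP2 at H2BC/H2AC had 116 ChIP and 30 IgG sequences in hTERT-RPE1 cells, a raw ratio of 3.77 (2.57 to 5.99). It had 249 ChIP and 60 IgG sequences in U2OS cells, a raw ratio of 4.10 (3.12 to 5.60). Its intervals lay below those of NPAT in both lines, while both factors were set against the same IgG library. HINFP had 93 ChIP and 3 IgG sequences in hTERT-RPE1 cells, a raw ratio of 23.5 with a wide interval (10.3 to 153). In U2OS cells HINFP had 73 ChIP and 10 IgG sequences, a raw ratio of 6.73 (3.75 to 15.9). The HINFP ratio of U2OS to hTERT-RPE1 was 0.277, with an interval that included 1 (0.0473 to 1.13).

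The HINFP regions at this pair were short, 471 bp in hTERT-RPE1 and 503 bp in U2OS cells, and lay within the NPAT regions. The HINFP and NPAT summits were 35 bp apart in hTERT-RPE1 and 8 bp apart in U2OS cells. These summits were not at the midpoint of the pair but 947 to 994 bp from it, on the HIST1H2BC side, just inside the limit of 1 kb and beyond the reach of the 250-base windows of sequence. CASP8AP2 had its summit 186 bp from the midpoint in hTERT-RPE1 cells and 806 bp from it in U2OS cells, on the same side. Just outside the limit, the nearest region to this pair was of E2F1 in U2OS cells, with its summit at 1065 bp, 24 ChIP and 23 IgG sequences and no peak call.

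At the pair of HIST1H2AD and HIST1H2BF (chr6:26306608-26308608), NPAT had 153 ChIP and 24 IgG sequences in hTERT-RPE1 cells, a raw ratio of 6.16 (4.13 to 10.3), and 199 and 28 in U2OS cells, a raw ratio of 6.90 (4.77 to 10.97). Both were peaks, with summits 277 and 138 bp from the midpoint. CASP8AP2 had 125 ChIP and 27 IgG sequences in U2OS cells, a peak with a raw ratio of 4.50 (3.04 to 7.30). In hTERT-RPE1 cells it had 41 ChIP and 11 IgG sequences, a raw ratio of 3.50 (1.88 to 8.04), and missed the call with a caller p of 4.13e-05. The CASP8AP2 and NPAT summits were 13 bp apart in hTERT-RPE1 and 194 bp apart in U2OS cells. The CASP8AP2 ratio of U2OS to hTERT-RPE1 was 1.24 (0.507 to 2.86), so that a call in only 1 of the lines did not go with a difference larger than counting error. HINFP had no listed region at this pair. Its nearest peaks lay 5166 bp away in hTERT-RPE1 and 5149 bp away in U2OS cells.

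The pair of HIST1H2BG and HIST1H2AE (chr6:26323990-26325990) had the largest difference in NPAT count and height between the lists of the 2 cell lines among the sites with a main region in both. In hTERT-RPE1 cells NPAT had 259 ChIP and 42 IgG sequences over 2320 bp, a peak with a raw ratio of 6.05 (4.44 to 8.76) and a height of 66. In U2OS cells the NPAT list held 1 region of 220 bp with 9 ChIP and 2 IgG sequences, a raw ratio of 3.33 (0.931 to 42.8), and a height of 8, the lowest that was listed. The nearest NPAT peak in U2OS cells lay 12160 bp away.

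CASP8AP2 was also lower in count and height in U2OS cells at this pair, though not in raw ratio. It had 96 ChIP and 33 IgG sequences in hTERT-RPE1 cells, a peak with a raw ratio of 2.85 (1.94 to 4.46) and a height of 27. In U2OS cells it had 21 ChIP and 3 IgG sequences, a raw ratio of 5.50 (2.09 to 36.7) and a height of 12, and was not a peak. E2F1 had 3 listed regions at this pair in the hTERT-RPE1 list and 0 in the U2OS list. The raw ratios of the lines could not be told apart at this depth: U2OS over hTERT-RPE1 was 0.642 (0.126 to 6.31) for NPAT and 2.39 (0.649 to 13.3) for CASP8AP2. The number of sequences, ChIP and IgG, and the length covered were lower in U2OS cells, and both counts were taken only within the listed region. Per kb of the main region, NPAT had 112 ChIP and 18.1 IgG sequences in hTERT-RPE1 and 40.9 and 9.09 in U2OS cells. For CASP8AP2 these were 60.95 and 20.95 in hTERT-RPE1 and 38.5 and 5.51 in U2OS cells. The NPAT value of 40.9 rests on 9 ChIP sequences in a region at the lowest height listed. Counts, heights and values per kb were not corrected for the total reads of the libraries, which are unknown.

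The IgG sequences per kb of listed region within 2 kb of H2BG/H2AE were 17.9 in the NPAT list of hTERT-RPE1 cells and 9.09 in that of U2OS cells, and 20.7 and 7.78 in the CASP8AP2 lists. The U2OS values rest on 2 and 6 IgG sequences, and all of these densities cover only the stretches that were listed. At H2BC/H2AC the same density was 22.2 and 20.8 in the NPAT lists. The part of this local IgG density in the difference between the lines was not tested. The lists give no copy number for these stretches in U2OS cells, so that less binding and fewer copies of the DNA cannot be told apart here or at H2BB. Heights at the other 2 pairs went the other way for NPAT, from 126 in hTERT-RPE1 to 147 in U2OS cells at H2BC/H2AC and from 47 to 61 at H2AD/H2BF.

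**Figure D2:**
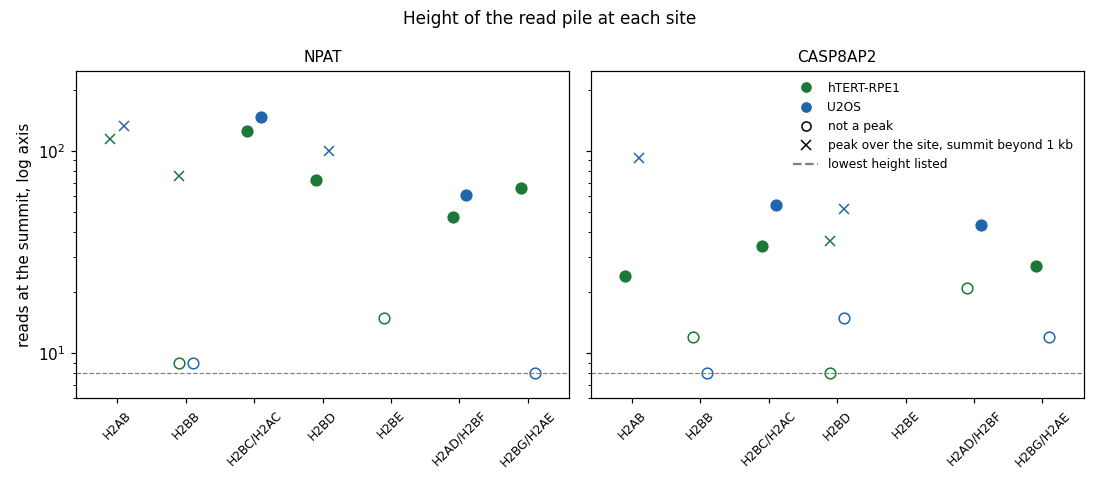
Reads at the summit (y axis, log scale) at each of the 7 sites (x axis) for NPAT and CASP8AP2 in hTERT-RPE1 (green) and U2OS cells (blue). Filled circles are peaks, open circles regions that were not peaks, crosses peaks that run over the site with the summit beyond 1 kb, and the dashed line is the lowest height listed, 8; at H2BG/H2AE the U2OS circles sit at 8 and 12, below the hTERT-RPE1 circles at 66 and 27.

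HIST1H2AB (chr6:26140775-26142775) is next to the H3 gene HIST1H3B in the gene order. NPAT had no region within 1 kb, but a peak ran over its start site in both lines. That peak had 493 ChIP and 54 IgG sequences in hTERT-RPE1 cells, with its summit 1562 bp from the start site, and 609 ChIP and 64 IgG sequences in U2OS cells, with its summit at 1508 bp. The raw ratios were 8.98 (6.88 to 12.3) and 9.39 (7.35 to 12.5). Both summits lay on the side of HIST1H3B.

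CASP8AP2 differed from NPAT at H2AB in hTERT-RPE1 cells. It had a peak of its own there, 89 bp from the start site, with 69 ChIP and 15 IgG sequences, a raw ratio of 4.38 (2.61 to 8.66), and a separate peak on the HIST1H3B side at 1687 bp with 132 and 33 sequences. In U2OS cells a single CASP8AP2 peak of 3670 bp covered the site, with 349 ChIP and 57 IgG sequences and its summit at 1586 bp. The CASP8AP2 stretch was thus listed as separate regions in hTERT-RPE1 cells and as a single region in U2OS cells. E2F1 had peaks at 1393 bp in hTERT-RPE1 and 1392 bp in U2OS cells on the same side, with 72 ChIP and 18 IgG and 48 ChIP and 15 IgG sequences. They were the nearest E2F1 peaks to all 7 sites.

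HIST1H2BB (chr6:26150864-26152864) is next to HIST1H3C. In hTERT-RPE1 cells an NPAT peak of 3454 bp ran over its start site, with 376 ChIP and 43 IgG sequences and its summit 1832 bp away on the HIST1H3C side. The region within 1 kb was separate, 209 bp with 9 ChIP and 0 IgG sequences. Its raw ratio of 10 rests on the added count, and its interval began at 1.97 and had no upper end. In U2OS cells no NPAT peak reached H2BB. The main region there had 20 ChIP and 3 IgG sequences, a raw ratio of 5.25 (1.98 to 35.0), and the nearest peak lay 11597 bp away.

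CASP8AP2 at H2BB had 38 ChIP and 11 IgG sequences in hTERT-RPE1 cells, a raw ratio of 3.25 (1.73 to 7.49) with a caller p of 0.000147, and a peak at 1846 bp that did not cover the start site. In U2OS cells it had 9 ChIP and 5 IgG sequences, a raw ratio of 1.67 (0.542 to 6.84), and its nearest peak was 11675 bp away. H2BB was therefore, with H2BG/H2AE, a site where peaks of NPAT and CASP8AP2 within 2 kb were listed in hTERT-RPE1 cells and not in U2OS cells. E2F1 had 1 region at H2BB in hTERT-RPE1 cells and none in U2OS cells, and HINFP had none in both. The IgG density within 2 kb of H2BB was 11.7 sequences per kb in the NPAT list of hTERT-RPE1 cells and 6.80 in that of U2OS cells, but 16.8 and 18.7 in the CASP8AP2 lists, the last from 5 IgG sequences. Both factors were set against the same IgG library in each line. These densities therefore depend on which stretches each list held and are not a background of the site as a whole.

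HIST1H2BD (chr6:26265328-26267328) is next to HIST1H1E, a linker histone gene. NPAT gave in hTERT-RPE1 cells a peak of 3925 bp with 503 ChIP and 62 IgG sequences, a raw ratio of 8 (6.22 to 10.7), and its summit 330 bp from the start site. In U2OS cells the NPAT peak had 507 ChIP and 67 IgG sequences, a raw ratio of 7.47 (5.86 to 9.92), and also ran over the start site, but its summit was 1733 bp away on the HIST1H1E side. The counts were alike in the 2 lists although the summit rule counted a peak in only 1 of them. CASP8AP2 peaks covered the start site in both lines, with summits at 1713 bp in hTERT-RPE1 and 1695 bp in U2OS cells and 160 ChIP and 39 IgG and 289 ChIP and 61 IgG sequences. The CASP8AP2 regions with a summit within 1 kb of H2BD were small and not peaks, with 12 ChIP and 6 IgG sequences in hTERT-RPE1 and 21 and 8 in U2OS cells. HINFP had 15 ChIP and 3 IgG sequences in hTERT-RPE1 cells, a raw ratio of 4 (1.41 to 26.9), and 14 and 8 in U2OS cells, a raw ratio of 1.67 (0.685 to 4.82), neither of them a peak.

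HIST1H2BE (chr6:26291003-26293003), next to the H4 gene HIST1H4D, was the site without a peak in any of the 8 lists, and no peak ran over its start site. Only the NPAT list of hTERT-RPE1 cells held regions there, 1 with 22 ChIP and 6 IgG sequences, a raw ratio of 3.29 (1.44 to 11.1), and 1 with 19 and 3. Their heights were 15. The nearest NPAT peaks were 5318 bp away in hTERT-RPE1 and 5369 bp away in U2OS cells, close to the nearest HINFP peaks at 5353 and 5349 bp, all on the HIST1H4D side. CASP8AP2 had its nearest peak 27388 bp away in hTERT-RPE1 and 13292 bp away in U2OS cells. HIST1H2BE is the gene of the 10 with 1 CCAAT box in the 250 bases shown above, and its octamer was present. The other 9 genes had 3 or 4, with most bases shared within a pair. Whether these letters go with the lack of a peak was not tested.

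E2F1 had listed regions at 6 sites in hTERT-RPE1 cells and at 4 in U2OS cells, and none was a peak. In hTERT-RPE1 cells the main regions held 10 to 19 ChIP sequences, with raw ratios from 1.46 at H2BG/H2AE to 2.83 (1.12 to 11.2) at H2AB. In U2OS cells the raw ratios ran from 1 at H2BC/H2AC to 1.596 (1.12 to 2.33) at H2BD, where 82 ChIP and 51 IgG sequences made up the largest E2F1 count of the 7 sites. HINFP at H2AB had 11 ChIP and 8 IgG sequences in hTERT-RPE1 cells and 9 and 6 in U2OS cells, with raw ratios of 1.33 (0.504 to 3.94) and 1.43 (0.477 to 5.12). HINFP was listed at 3 of the 7 sites in each line, the same 3, H2AB, H2BC/H2AC and H2BD.

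**Figure D3:**
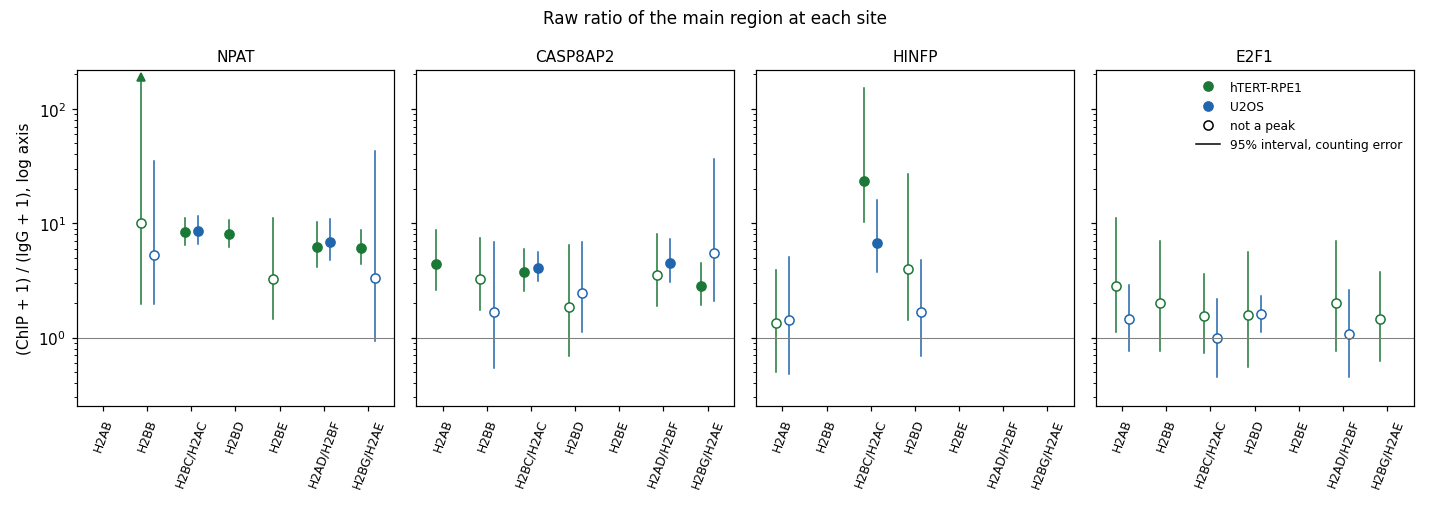
Raw ratio of the main region (y axis, log scale) at each of the 7 sites (x axis), in 1 panel per factor, with hTERT-RPE1 in green and U2OS in blue. Filled circles are peaks, open circles were not peaks, bars are 95% intervals of counting error, the arrow marks an interval without an upper end and a missing circle means no region within 1 kb; NPAT and CASP8AP2 peaks lie between 2.85 and 8.54, and the largest raw ratio of a peak is that of HINFP at H2BC/H2AC in hTERT-RPE1 cells, 23.5.

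Across the 16 combinations of factor and site listed in both lines, the interval of the depth-corrected ratio of U2OS to hTERT-RPE1 included 1 in 16. The main regions compared were not always the same stretch. For E2F1 at H2BD the summits lay 1501 bp apart, with 10 ChIP sequences in hTERT-RPE1 and 82 in U2OS cells. Intervals were wide where a list held few sequences, so that an interval including 1 does not show that the lines were alike. For NPAT at H2BB, counted among the 16, the ratio was 0 (0 to 5.57) because the hTERT-RPE1 list had 0 IgG sequences. It is no usable estimate, and the summits there were 1769 bp apart. By their upper over lower end, the narrowest intervals at H2BC/H2AC were 0.606 to 1.33 for NPAT and 0.630 to 1.79 for CASP8AP2. At H2AD/H2BF the NPAT ratio was 0.979 (0.520 to 1.83). The intervals of the other combinations were wider by this measure, that of HINFP at H2BC/H2AC among them. These values compare single libraries and not the cell lines as such.

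The median raw ratio of the pairs over that of the single genes did not give a steady order. For NPAT it was 0.77 in hTERT-RPE1 cells, with pairs from 6.05 to 8.37 and single genes from 3.29 to 10, and 1.31 in U2OS cells, where 1 single gene was listed. For CASP8AP2 it was 1.08 in hTERT-RPE1 and 2.19 in U2OS cells. For HINFP it was 8.81 in hTERT-RPE1 and 4.35 in U2OS cells, from the 1 pair listed, and for E2F1 0.769 and 0.683. The ranges of pairs and single genes overlapped for NPAT in both lines and for CASP8AP2 and E2F1 in hTERT-RPE1 cells. With a window of 2 kb, which takes in the peaks over H2AB and H2BD, the ratio was 0.923 for NPAT and 0.962 for CASP8AP2 in U2OS cells, on the other side of 1. CASP8AP2 in hTERT-RPE1 cells also changed sides, to 0.870 with 2 kb and 0.918 with 500 bp, and NPAT in hTERT-RPE1 cells changed to 1.08 with 500 bp.

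Among all NPAT peaks of the genome, those at the H2A and H2B sites ranked high by count and not by ratio, as did many other peaks of high count. The NPAT peak at H2BC/H2AC had the most ChIP sequences of the 774 peaks in hTERT-RPE1 cells and ranked 2 by caller p, while it ranked 599 by raw ratio. The 4 member peaks of that list ranked from 2 to 26 by p and from 599 to 678 by raw ratio. In U2OS cells H2BC/H2AC ranked 4 of 514 by p and 310 by raw ratio, and H2AD/H2BF ranked 18 and 359. Of the 25 NPAT peaks with the most ChIP sequences, 21 in hTERT-RPE1 and 23 in U2OS cells had no summit within 1 kb of a site. Of these, 13 and 11 were on chromosome 6. Those others had 143 to 493 ChIP sequences and a median raw ratio of 7.08 in hTERT-RPE1 cells, and 146 to 629 sequences and a median of 7.05 in U2OS cells. The member peaks had raw ratios of 6.05 to 8.37 and of 6.90 to 8.54, close to these medians. The others were not all away from the genes, since some ran over a start site with the summit beyond 1 kb. In hTERT-RPE1 cells these were the peaks over H2AB and H2BB, with 493 and 376 ChIP sequences. In U2OS cells they were the peaks over H2AB and H2BD, with 609 and 507. CASP8AP2 member peaks ranked from 20 to 42 of 184 by p in hTERT-RPE1 cells and 22 and 32 of 232 in U2OS cells. For HINFP, H2BC/H2AC ranked 9 of 253 by both p and raw ratio in hTERT-RPE1 cells, and 24 of 198 by p and 115 by raw ratio in U2OS cells.

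The high raw ratios of most other NPAT peaks came with few sequences. In hTERT-RPE1 cells 386 of the 774 NPAT peaks had 0 IgG sequences, and the median peak had 21 ChIP sequences, a raw ratio of 18 and a length of 492.5 bp. The member peaks had 24 to 62 IgG sequences and a median length of 2691 bp. In U2OS cells 118 of the 514 had 0 IgG sequences, and the median peak had 29 ChIP sequences, a raw ratio of 9.36 and a length of 583 bp. The U2OS member peaks, with raw ratios of 6.90 and 8.54, were nearer to this median than those of hTERT-RPE1 cells were to 18. Their median length was 2386 bp. Length and count were not independent of each other, since a longer region holds more ChIP and more IgG sequences. Between the first and the last site, over 183.2 kb, the 8 lists held the summits of 28 other peaks on chromosome 6. None of these had its summit within 1 kb of a site, but some ran over the start site of a single gene.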

How the data were processed

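ChIP-Seq was done by the authors with 5 µg of antibody on chromatin crosslinked with 1% formaldehyde and sheared to 200 to 400 bp, with 1 library per factor and cell line and 1 IgG library of each kind per line. Reads from an Illumina Genome Analyzer or HiSeq2000 were mapped to NCBI36 (hg18, also in the submitters' processing notes). The aligner, the peak caller and the handling of duplicates were not given in the sources used here. The deposited lists give whole-number counts of ChIP and IgG sequences per region, a signal (reads at the summit, at least 8), a p-value and a fold change. This fold change is in the deposited lists a ratio, (ChIP + 1)/(IgG + 1) times a constant per library. The deposited p-value compares 1 ChIP with 1 IgG library and is not adjusted. IgG libraries were used only through these counts.

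Regions were assigned to the 7 NCBI36 sites by their summits (within 1 kb), and the region with the most ChIP sequences stood for a site. The start-site positions came with the list of genes and could not be checked against an NCBI36 annotation, which was not used here. All 10 genes were named at every site, and other regions only where they ran over a site, were the nearest peak or had a summit within 2 kb. Raw ratios, Clopper-Pearson intervals, and conditional odds-ratio intervals for U2OS over hTERT-RPE1 after correction by each library's constant were computed with scipy 1.17.1, numpy 2.4.6 and pandas 2.3.3 under Python 3.11.15 (plots with matplotlib 3.10.9), and the code was tested on simulated regions. Promoters and gene order were from RefSeq (GRCh38.p14), matched by symbol and synonym, and no coordinates were moved between builds. The alternatives were windows of 500 bp and 2 kb, regions covering the site, a fold change above 5, a p-value below 1e-10, 0.5 as added count, the nearest summit, summed regions, other depth corrections and, chosen after seeing the data, a summit within 1 kb or a region over the site. The genes, sites and motifs were chosen with earlier results of these data known.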

Additional observations from a re-analysis of the deposited data

How the results depend on the processing

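The counts of peaks turned on the window. With 500 bp, NPAT and CASP8AP2 in U2OS cells had 1 site each in place of 2, and HINFP had 0 in place of 1 in both lines, because the H2BC/H2AC summits of NPAT and HINFP in both lines and of CASP8AP2 in U2OS cells lay beyond 500 bp. With 2 kb, NPAT had 6 in place of 4 in hTERT-RPE1 cells and 4 in place of 2 in U2OS cells, CASP8AP2 5 in hTERT-RPE1 and 4 in U2OS cells, and E2F1 1 in each line in place of 0. Counting regions that cover the site gave 6 for NPAT in hTERT-RPE1 cells, 4 for NPAT and 4 for CASP8AP2 in U2OS cells and 0 for HINFP in both lines. Counting either kind, chosen after seeing the data, gave 6 for NPAT in hTERT-RPE1 cells and 4 for NPAT and 4 for CASP8AP2 in U2OS cells. For CASP8AP2 in hTERT-RPE1 cells a p-value under 1e-10 left 1 of 3 sites and a fold change above 5 left 0. A fold change above 5 also left 0 of 2 in U2OS cells.

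Sites with any listed region fell with 500 bp to 3 of 5 for CASP8AP2 in U2OS cells, to 1 of 3 for HINFP in each line and to 3 of 6 for E2F1 in hTERT-RPE1 cells. Regions covering the site gave 0 for HINFP in hTERT-RPE1 cells, 1 in U2OS cells and 2 for E2F1 in hTERT-RPE1 cells.

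The median raw ratio of pairs over single genes changed sides of 1 for NPAT in hTERT-RPE1 cells (0.77 to 1.08, 500 bp), NPAT in U2OS cells (1.31 to 0.923, 2 kb), CASP8AP2 in hTERT-RPE1 cells (1.08 to 0.918, 500 bp, and 0.870, 2 kb) and CASP8AP2 in U2OS cells (2.19 to 0.962, 2 kb). On the same side it moved for NPAT in U2OS cells to 3.45 with the nearest summit, 1.69 with summed regions and 2.56 with 500 bp, and for CASP8AP2 in U2OS cells to 3 with 500 bp. For E2F1 it moved to 0.672 with summed regions, 0.551 with 500 bp and 0.659 with 2 kb in hTERT-RPE1 cells, and to 0.788 with summed regions and 0.455 with 2 kb in U2OS cells. A wider or narrower window puts other regions into these medians of 1 to 4 sites, and no further cause was tested. HINFP in both lines gave no value with 500 bp. Of the raw ratios at single sites, 207 of 208 values under the alternatives moved by less than their counting intervals. Sites without a region dropped out of this count: the 500 bp window gave 23 values, against 37 with 0.5 as added count. NPAT and HINFP at H2BC/H2AC were among those lost. Wide intervals also hide large moves. NPAT at H2BB in U2OS cells went from 5.25 to 2 with the nearest summit and counted as unmoved. Of the 16 ratios between lines, the interval of 1, HINFP at H2BC/H2AC, no longer included 1 without depth correction.

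No paired analysis was possible because each factor had 1 library per line. Regions under a height of 8 were not listed, so that a site without a region is a site under this limit and not a site without binding.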
